A study of Mus musculus with 4 samples.

Results

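The 10 genes described here across the cell types of mouse liver are Cib3, Pls1, Blnk, Cpne8, Ntrk2, Rtn4, Gldn, Atp11a, Alpk1 and Msrb3. They were chosen because their summed counts in hepatocyte nuclei of HNKO mice lay above those of WT mice, and they are 10 of the 29906 genes with at least 1 count in the matrix. HNKO mice lack Nampt in hepatocytes: both Nampt alleles are floxed and Cre is driven by the albumin (Alb) promoter, which is active in hepatocytes. WT mice are floxed littermates without Cre, so both genotypes carry the floxed allele. All mice, WT and HNKO, were females of the C57BL6/BomTac Nampt cKO line. They were 8 to 12 weeks old at the start of 6 weeks on a purified control diet. They came from a cohort in which part of the mice drank water with nicotinamide riboside, a precursor of NAD, and the sources used here do not say which arm these 6 mice were in. Single nuclei of 3 WT and 3 HNKO livers were tagged with 1 hashtag oligonucleotide per mouse, pooled, and sequenced in 2 RNA pools with 2 matching hashtag pools, so the mouse and not the pool is the replicate. The members were picked on the HNKO against WT contrast in hepatocytes, and their values there are given as a description without a test.

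Nampt encodes the enzyme that turns nicotinamide into nicotinamide mononucleotide, the rate-limiting step of the salvage route to NAD, on which hepatocytes depend for redox reactions and for enzymes that consume NAD. Hepatocytes fill the liver lobule from the portal vein to the central vein, and their gene use differs along that axis. The 10 genes have no common pathway in textbook terms. Cib3 is an EF-hand calcium- and integrin-binding protein, Pls1 (plastin 1) bundles actin in microvilli, and Cpne8 is a copine, a class of calcium-dependent phospholipid-binding proteins. Blnk is the adaptor that links the B cell receptor kinase Syk to its effectors, Ntrk2 (TrkB) is the receptor for brain-derived neurotrophic factor, and Alpk1 is a cytosolic kinase that senses a bacterial sugar nucleotide and signals through Tifa. Gldn (gliomedin) is a Schwann cell protein of the node of Ranvier. Rtn4 (Nogo) shapes tubules of the endoplasmic reticulum, Atp11a is a flippase that moves phosphatidylserine to the inner leaflet of the plasma membrane, and Msrb3 reduces oxidised methionine.

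The members lie on 8 chromosomes. In GENCODE M21 on GRCm38 each is a protein-coding gene. Cib3 (ENSMUSG00000074240) spans chr8:72204335-72212837 on the minus strand and overlaps no other gene. Atp11a shares the chromosome but lies far from it, at chr8:12757014-12868728 on the plus strand. Pls1 and Gldn lie on chromosome 9, Blnk on 19, Cpne8 on 15, Ntrk2 on 13, Alpk1 on 3 and Msrb3 on 10. Rtn4 (chr11:29692947-29744331, plus strand) overlaps the end of Eml6 on the other strand. Eml6 did not share the pattern of Rtn4 in hepatocyte sums (CPM are UMIs of a gene per 1000000 UMIs of the sum), with 12.9, 14.4 and 26.1 CPM in WT mice and 33.7, 19.5 and 21.2 in HNKO mice 1, 2 and 3.

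Upstream sequences of 2 members are shown because each stood highest in a different single HNKO mouse, Ntrk2 in HNKO mouse 1 and Rtn4 in HNKO mouse 3. Each is the 250 bases before the RefSeq start on GRCm38.p6, 5′ to 3′ on the gene's strand, at chr13:58806319-58806568 (plus) for Ntrk2 and chr11:29692648-29692897 (plus) for the first of the Rtn4 starts. Neither window holds an exon of the gene in GENCODE M21. The Cib3 window is not shown, since whether it holds part of a first exon that the annotation lacks was not tested. Capitals mark matches on either strand to 8 short motifs.
Ntrk2: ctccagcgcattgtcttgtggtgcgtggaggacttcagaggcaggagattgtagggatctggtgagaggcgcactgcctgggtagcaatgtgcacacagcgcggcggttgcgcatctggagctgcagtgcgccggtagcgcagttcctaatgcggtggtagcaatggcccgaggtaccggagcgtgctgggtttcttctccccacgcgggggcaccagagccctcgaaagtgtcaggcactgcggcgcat
Rtn4: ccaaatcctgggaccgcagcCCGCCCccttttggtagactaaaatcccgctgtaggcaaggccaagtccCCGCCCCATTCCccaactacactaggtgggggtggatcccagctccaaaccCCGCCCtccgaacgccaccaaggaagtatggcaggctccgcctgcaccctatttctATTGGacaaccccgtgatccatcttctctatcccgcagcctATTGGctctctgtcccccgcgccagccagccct

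The motifs searched were the TEAD motif GGAATG, the AP-1 motif TGANTCA, the TATA box TATAAA, the E-box CACGTG, the CCAAT box CCAAT, the GC box GGGCGG, the FOXA motif TGTTTAC and the cAMP response element TGACGTCA. The Ntrk2 window held none of them. The Rtn4 window held 3 GC boxes, 2 CCAAT boxes and 1 TEAD match, with no overlap between matches. Of 32536 promoter windows of this length, 33.0% held a GC box, 33.8% a CCAAT box and 12.6% a TEAD match, so each of these matches is common.

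The deposited set held 5193 nuclei, of which 4410 were hepatocyte nuclei, in 13 clusters. Hepatocyte nuclei numbered 562, 713 and 657 in WT mice and 812, 819 and 847 in HNKO mice, with sums of 3524052 to 6634851 UMIs (counted molecules) per mouse. No barcode was shared. Hepatocyte clusters followed single mice: clusters HNKO 1 and Central HNKO 1 were 99.1% and 98.9% HNKO mouse 1, clusters HNKO 2, HNKO 3 and Central HNKO 2 were 97.0 to 100.0% HNKO mouse 3, and HNKO mouse 2 lay mostly in the clusters of WT mouse 2. HNKO mouse 3 stood apart: its own hashtag held on average 45.6% of the hashtag counts of a nucleus against 62.6 to 76.3% in the other mice, its scaling factor was 1.28 against 0.917 to 1.01, and its summed level of 5 hepatocyte markers was 8931 CPM against 20180 to 26680. The targeted gene Nampt gave 91.7, 108 and 103 CPM in hepatocyte sums of WT mice and 91.7, 147 and 70.9 in HNKO mice. The part of Nampt that is floxed is not given in the sources used here, and intronic and 3′ counts outside a deleted part do not check the labels.

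Levels per mouse are CPM of the summed hepatocyte nuclei of a mouse, scaled by TMM, which sets the bulk of genes equal between mice. Scaled to UMI totals alone, an alternative chosen after the data were seen, the median log2 difference between HNKO and WT over all genes was 0.20 instead of 0.02. In 8 of the 10 members the 3 HNKO mice lay above the 3 WT mice, and 6.37% of the 11810 genes tested did so. Since the members were picked on this contrast, nothing is read from that count. Fewer cells that use a gene and less RNA per cell cannot be told apart in such sums.

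Among the cytoskeletal and calcium-binding members, Cib3 had the largest ratio of the HNKO to the WT mean, 18.8, but the narrowest gap between the lowest HNKO and the highest WT mouse. Its level was 5.52, 4.45 and 3.35 CPM in WT mice and 114.9, 8.76 and 127 CPM in HNKO mice 1, 2 and 3. HNKO mice 1 and 3 were more than an order of magnitude above every WT mouse, whereas HNKO mouse 2 was 1.59 times the highest WT mouse. The log2 difference was 4.25 ± 0.91 (SE, n = 3 and 3). Pls1 had the same order of the HNKO mice, with 2.15, 3.4 and 2.87 CPM in WT and 52.6, 10.9 and 73.7 CPM in HNKO mice. Its lowest HNKO mouse was 3.21 times the highest WT mouse, and its log2 difference was 4.01 ± 0.70 (SE). Cpne8 was at 9.82, 7.58 and 7.41 CPM in WT and 40.8, 18.2 and 39.2 CPM in HNKO mice, again without overlap and with HNKO mouse 2 the lowest of its group. The log2 difference of Cpne8 was 1.99 ± 0.34 (SE).

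Among the signalling members, Blnk was the most even across HNKO mice. It was at 9.82, 9.94 and 5.26 CPM in WT and 28.8, 31.3 and 33.9 CPM in HNKO mice 1, 2 and 3. The means were 8.34 ± 2.67 (SD) and 31.3 ± 2.59 (SD), and HNKO mouse 2 lay between HNKO mice 1 and 3. The log2 difference was 1.92 ± 0.27 (SE), the smallest standard error among the members. Alpk1 was at 12.9, 25.4 and 11.7 CPM in WT and 75.5, 36.2 and 57.9 CPM in HNKO mice, a log2 difference of 1.76 ± 0.37 (SE). Ntrk2 was at 33.4, 73.5 and 79.6 CPM in WT and 460.1, 108.5 and 109.6 CPM in HNKO mice 1, 2 and 3. HNKO mouse 1 stood alone for Ntrk2, and HNKO mouse 2, the lowest of its group, was 1.36 times the highest WT mouse. The log2 difference of 1.86 ± 0.62 (SE) for Ntrk2 became 0.81 without HNKO mouse 1.

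Gldn was the member with the fewest counts, 13.5 UMIs in all WT hepatocyte nuclei and 153 in all HNKO hepatocyte nuclei. Its levels of 1.53, 1.05 and 0.96 CPM in WT and 7.89, 4.30 and 11.2 CPM in HNKO mice did not overlap, and the log2 difference was 2.73 ± 0.47 (SE). Atp11a was at 7.06, 2.62 and 3.82 CPM in WT and 28.1, 11.7 and 24.7 CPM in HNKO mice, a log2 difference of 2.28 ± 0.45 (SE). In both, as for Cib3, HNKO mouse 2 was the lowest HNKO mouse.

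Rtn4 and Msrb3 did overlap between genotypes. Rtn4 was at 45.1, 40.8 and 24.9 CPM in WT and 58.7, 35.4 and 215.4 CPM in HNKO mice 1, 2 and 3, so that HNKO mouse 2 lay inside the WT range and HNKO mouse 3 carried the difference. The log2 difference of Rtn4, 1.49 ± 0.63 (SE), became 0.36 without HNKO mouse 3. Msrb3 was at 25.5, 23.3 and 28.4 CPM in WT and 105.5, 27.9 and 47.7 CPM in HNKO mice. For Msrb3, HNKO mouse 2 lay just below the highest WT mouse, at 0.98 times its level. Between the members without overlap and those with it, Ntrk2 (1.36 times) and Msrb3 are the nearest to the line. The log2 difference of Msrb3 was 1.23 ± 0.44 (SE) and was 0.56 without HNKO mouse 1. Restricting the nuclei to those whose own hashtag held at least 50% of the hashtag counts left 364 of 847 hepatocyte nuclei of HNKO mouse 3 and log2 differences from 1.28 (Msrb3) to 4.20 (Cib3).

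**Figure D1:**
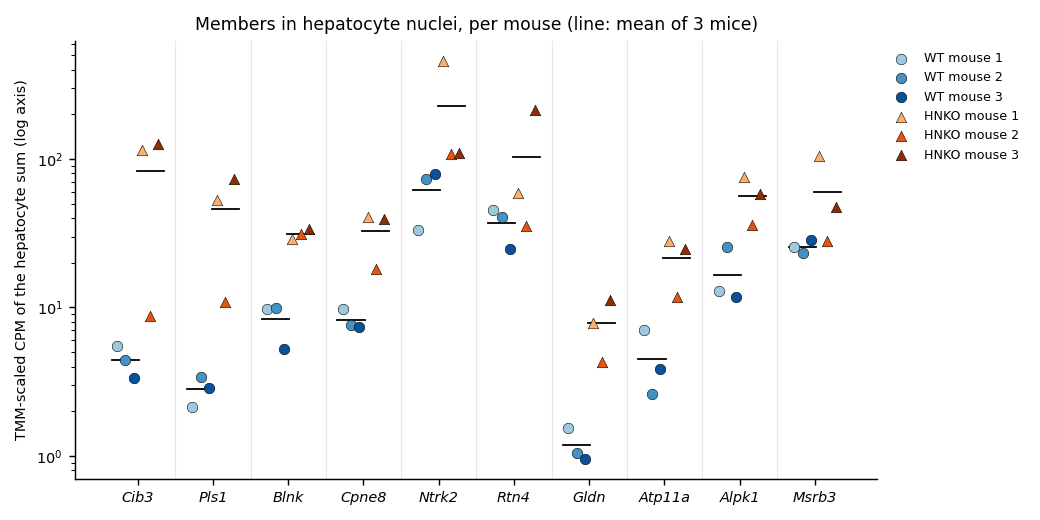
Level of each member in the hepatocyte sum of each mouse, in TMM-scaled CPM on a log axis; circles are WT mice, triangles HNKO mice and black lines the mean of 3 mice. HNKO mouse 2 is the lowest triangle for every member except Blnk, and for Rtn4 and Msrb3 it lies among the circles.

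Counted per nucleus, a UMI of Cib3 was present in 3.03%, 2.10% and 1.98% of WT hepatocyte nuclei and in 39.0%, 4.40% and 40.7% of HNKO hepatocyte nuclei. The exact (Clopper-Pearson) 95% intervals, which cover counting error only, ran from 35.7 to 42.5% in HNKO mouse 1, from 3.10 to 6.03% in HNKO mouse 2 and from 37.4 to 44.1% in HNKO mouse 3. The interval of HNKO mouse 2 overlapped that of WT mouse 1, 1.77 to 4.80%. In endothelial nuclei, which should lack hepatocyte transcripts, Cib3 was found in 2.82% of 71 nuclei of HNKO mouse 1 and 9.52% of 42 nuclei of HNKO mouse 3, at a median of 3260 and 2910 UMIs per nucleus against 5786 and 4800 in hepatocytes. It was found in 1 of 29 endothelial nuclei of WT mouse 3 (3.45%), in 0 of 26 in WT mice 1 and 2 each, and in 0 of 51 in HNKO mouse 2. The endothelial intervals were wide, reaching 13.2% for 0 of 26 nuclei in WT mice 1 and 2 each. Depth differed between the cell types, nuclei of a mouse are not replicates, and Cib3 was picked on its hepatocyte level. The shares are therefore set side by side as a description. In HNKO mouse 2 and the WT mice the intervals of the 2 cell types overlapped. With so few endothelial nuclei, a share above background was not detectable there.

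Depth differed between the mice, with a median of 3572 to 4162 UMIs per hepatocyte nucleus in WT and 4800 to 5786 in HNKO. After thinning each hepatocyte nucleus to 1000 UMIs, Cib3 was found in 1.25%, 0.56% and 0.46% of WT and 10.1%, 1.10% and 13.2% of HNKO nuclei. Ntrk2 was again highest in HNKO mouse 1, with 10.5%, 17.3% and 18.9% of WT nuclei and 67.7%, 33.0% and 38.6% of HNKO nuclei before thinning and 2.67%, 5.89%, 5.48%, 28.2%, 8.79% and 10.98% after it. Rtn4 was found in 17.6%, 14.7% and 12.02% of WT nuclei and 24.5%, 18.4% and 52.2% of HNKO nuclei. Thinned, HNKO mouse 2 fell back into the WT range for Rtn4, at 3.79% against 1.98 to 4.77%. It also fell inside that range for Cib3, Cpne8 and Gldn. Cpne8 was found in 10 of 819 thinned nuclei of HNKO mouse 2 and in 9 of 657 of WT mouse 3. Gldn was found in 2 of 819 thinned nuclei of HNKO mouse 2 and in 2 of 562 of WT mouse 1. For the other members HNKO mouse 2 stayed above the WT mice after thinning. Blnk, the most even member, was found in 4.98%, 3.93% and 3.04% of WT and 13.1%, 15.1% and 17.5% of HNKO nuclei, and thinned in 1.78%, 1.26% and 0.91% against 2.34%, 2.20% and 3.54%. For Pls1 the shares were 1.07 to 1.82% in WT and 21.3%, 4.88% and 31.2% in HNKO mice. For Gldn no HNKO mouse reached 7%, with 0.61 to 0.89% in WT and 3.57%, 2.32% and 6.85% in HNKO mice. Cpne8, Atp11a, Alpk1 and Msrb3 were found in 1.26 to 13.7% of WT and 7.08 to 39.2% of HNKO hepatocyte nuclei.

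Members were found together in single nuclei mainly in HNKO mice 1 and 3. At least 1 member was present in 44.5%, 44.5% and 44.9% of WT hepatocyte nuclei and in 89.7%, 69.1% and 87.0% of HNKO nuclei. At least 3 members were present in 3.74%, 3.51% and 3.04% of WT and 48.4%, 14.5% and 48.3% of HNKO nuclei. Thinned to 1000 UMIs, a nucleus held on average 0.16, 0.17 and 0.15 members in WT mice and 0.72, 0.27 and 0.73 in HNKO mice. HNKO mouse 2 thus lay between the WT mice and the other HNKO mice at either depth.

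**Figure D2:**
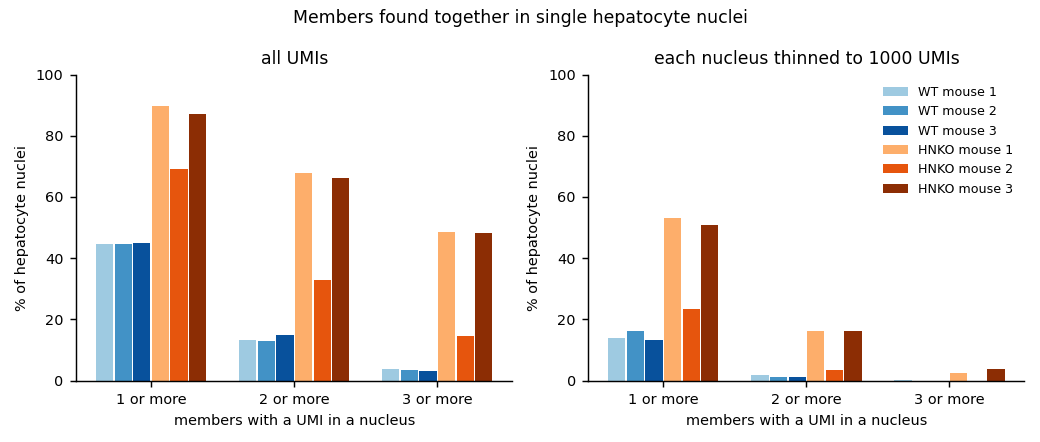
Share of hepatocyte nuclei of each mouse with a UMI of at least 1, 2 or 3 of the 10 members, from all UMIs (left) and after thinning each nucleus to 1000 UMIs (right). HNKO mice 1 and 3 stand highest in all groups of bars, and HNKO mouse 2 lies between them and the WT mice except for 3 or more members after thinning, where it is at 0.

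Pairs of members in single nuclei of a mouse were set against the number that the product of their shares gives, where nuclei are taken as alike. The 27 pairs with at least 4 expected nuclei, all in HNKO mice, lay on both sides of it, 19 above and 8 below. In HNKO mouse 1, Cib3 and Ntrk2 shared 26 thinned nuclei against 23.1 from the product. In HNKO mouse 3 the same pair shared 13 nuclei against 12.3, and Cib3 and Rtn4 shared 24 against 20.8. The pair with the highest excess was Cib3 and Alpk1 in HNKO mouse 3, with 15 against 6.88. The same pair in HNKO mouse 1 shared 5 against 5.35. The pair farthest below its product was Cpne8 and Ntrk2 in HNKO mouse 1, with 2 against 8.46. Pairs of a mouse pool its clusters, which differ in the levels of the members.

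The clusters of hepatocytes separate members that the sums per mouse do not. Clusters were built from these nuclei and by and large belong to 1 mouse, so their levels (CPM of the summed nuclei, unscaled) are a description. In the clusters labelled Central the 6 pericentral markers summed to 7066 to 8711 CPM against 162 to 2162 in the other hepatocyte clusters. Cib3 was at 122 CPM in cluster HNKO 1, 234 in cluster HNKO 2 and 54.8 in cluster HNKO 3, and at 4.45 and 4.62 CPM in clusters Central HNKO 1 and Central HNKO 2 of the same 2 mice. Of the 699 UMIs of Cib3 in hepatocytes of HNKO mouse 1, 4 came from its 93 nuclei in Central HNKO 1. Central HNKO 2 held 2 UMIs of Cib3 in 78 nuclei, below the 6.94 CPM that 3 counts give in its sum. At these low counts, the level of Cib3 in those pericentral clusters lay within the range of the clusters made up mostly of WT nuclei.

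In HNKO mice 1 and 3, Pls1, Ntrk2, Rtn4 and Gldn were also lower in the pericentral cluster made up of that mouse than in its clusters HNKO 1, 2 and 3. Pls1 was at 53.9 CPM in cluster HNKO 1 and 16.7 in Central HNKO 1, both of mouse 1. In mouse 3 Pls1 was at 126 and 46.5 in clusters HNKO 2 and HNKO 3 and 43.9 in Central HNKO 2. The value of Central HNKO 2 rests on 19 UMIs and is close to that of cluster HNKO 3. Ntrk2 was at 489 CPM in cluster HNKO 1 and 88.5 in Central HNKO 1, and it was low in pericentral nuclei of WT mice too, at 6.27 to 23.1 CPM in cluster Central 1. Gldn was at 7.79, 18.7 and 9.80 CPM in clusters HNKO 1, 2 and 3 and at 2.23 CPM in Central HNKO 1. It was not counted in the 78 nuclei of Central HNKO 2, which allows a level of up to 6.94 CPM there (3 counts of the sum).

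Rtn4 was concentrated in a single hepatocyte cluster. It was at 387 CPM in cluster HNKO 2 and at 17.8 to 98.0 CPM in the other 12 clusters, and 1313 of its 1517 UMIs in hepatocytes of HNKO mouse 3 were in the 479 nuclei that this mouse had in cluster HNKO 2. The neighbouring cluster HNKO 3, of the same mouse, was at 98.0 CPM and Central HNKO 2 at 62.4. Cluster HNKO 2 was also the highest hepatocyte cluster for Cib3, Pls1, Cpne8 (70.0 CPM), Gldn and Alpk1 (113 CPM).

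Blnk and Atp11a had the other direction along the lobule in HNKO mice, apart from Blnk in HNKO mouse 1. For Atp11a in HNKO mouse 3 the difference was small. Msrb3 likewise peaked in a cluster labelled Central HNKO. Blnk was at 94.0 CPM in Central HNKO 2 and at 40.9 and 37.6 in clusters HNKO 2 and HNKO 3 of the same mouse. In HNKO mouse 2, whose pericentral nuclei shared the cluster Central 1 with those of the WT mice, Blnk was at 69.2 CPM in Central 1 and at 29.4 and 25.6 in Hepatocytes 1 and Periportal 1. The WT mice were uneven in Central 1, at 46.7, 6.27 and 3.48 CPM of Blnk, from 12, 1 and 1 UMIs. In the clusters Hepatocytes 4, 1 and 3 of WT mice 1, 2 and 3, Blnk was at 8.68, 13.6 and 4.95 CPM. Only WT mouse 1 was thus higher in Central 1 than there. In mouse 1, cluster HNKO 1 (26.7 CPM) and Central HNKO 1 (27.9 CPM) were alike in Blnk. Atp11a was at 41.2 and 37.0 CPM in Central HNKO 1 and 2 against 22.6 to 35.2 in clusters HNKO 1 to 3. The 35.2 is of a cluster of HNKO mouse 3 and is close to the 37.0 in Central HNKO 2 of that mouse. In HNKO mouse 2, Atp11a was at 41.98 CPM in Central 1, 15.7 in Hepatocytes 1 and 2.59 in Periportal 1, a fall toward the portal end in 1 mouse.

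The cluster Hepatocytes 2 held at least 37 nuclei of each mouse but HNKO mouse 3 (3 nuclei) and so allows a look at members within 1 cluster. Cib3 was at 98.3 CPM in HNKO mouse 1 (15 UMIs), 18.4 in HNKO mouse 2 (4 UMIs), 18.04 in WT mouse 1 (5 UMIs) and not counted in WT mice 2 and 3, which allows up to 15.6 and 19.2 CPM. Pls1 was at 65.5 and 41.4 CPM in HNKO mice 1 and 2 and at 7.21 CPM in WT mouse 1, and it was not counted in WT mice 2 and 3. Msrb3 was at 104.8 CPM in HNKO mouse 1, while HNKO mouse 2 and the WT mice ranged from 10.8 to 31.2 CPM. Each of these values rests on at most 16 UMIs.

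**Figure D3:**
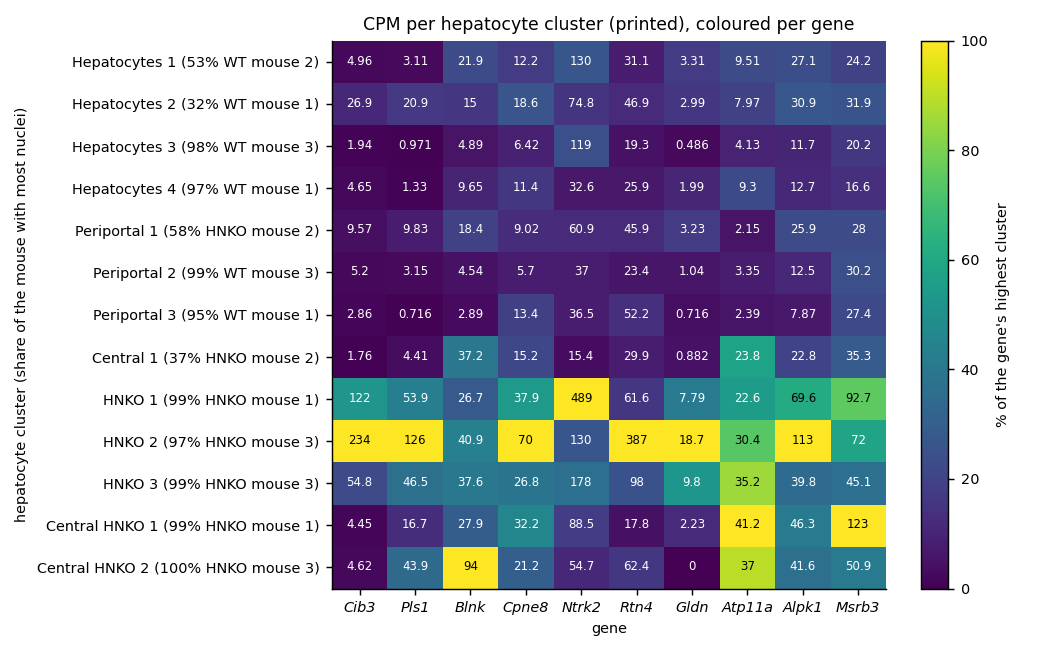
CPM of each member (printed) in each of the 13 hepatocyte clusters, coloured as a percentage of the gene's highest cluster; row labels give the mouse with most nuclei. Cib3, Pls1, Cpne8, Rtn4, Gldn and Alpk1 peak in cluster HNKO 2, Ntrk2 in cluster HNKO 1, and Blnk, Atp11a and Msrb3 in clusters labelled Central HNKO.

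Over 22 sums of a mouse and hepatocyte cluster with at least 20 nuclei, the pairs of members most alike in log2(CPM + 1) were Blnk and Atp11a (Pearson r = 0.85) and Cib3 and Pls1 (r = 0.81). The sums share mice and sequencing depth, and the members were picked for a common difference, so the correlations only describe these sums. Among 7278 genes with a mean of at least 10 CPM, the 3 most like Rtn4 were Ocln (r = 0.89), F11r (r = 0.83) and Marveld2 (r = 0.81), which encode occludin, junctional adhesion molecule A and tricellulin. Ocln ran from 44.7 to 253.5 CPM over the 22 sums. The most alike genes included Exoc6b and Pls1 for Cib3, and were C4bp, Pvt1 and Sptlc2 for Pls1, and Atp11a, Tanc1 and Unc13b for Blnk. They were Tanc1, C4bp and Atp11a for Cpne8, Armh3, Mrap and Mical2 for Ntrk2, and Traf5, Ercc6l2 and Nrg1 for Gldn. They were Smyd3, Blnk and Gm31333 for Atp11a, Pvt1, Vti1a and Gpr39 for Alpk1, and Agap1, Arhgap6 and Maml3 for Msrb3.

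Outside hepatocytes the members split into genes with few UMIs and genes with a high level in some other cell type. Levels across cell types are unscaled CPM. Free RNA from hepatocytes has to be read beside these values: the 5 hepatocyte markers Alb, Apob, Ttr, Cps1 and Serpina1c were present in all other cell types at a median of 5.90 to 58.4% of their level in hepatocytes of the same mouse. Cib3 had 0 or 1 UMI in each endothelial and stellate sum of WT mice, where a count of 0 allows a level of up to 29.96 to 52.9 CPM, so that a low level could not be detected at this depth. In HNKO mouse 1 Cib3 was at 25.2 CPM in endothelial nuclei, 28.9 in stellate nuclei and 69.4 in CD45+ nuclei, which is 23.9%, 27.4% and 65.9% of its hepatocyte level, while the markers were at medians of 32.3%, 26.3% and 38.5%. These values of HNKO mouse 1 rest on few nuclei. The endothelial value came from 8 UMIs in 2 of 71 nuclei and the stellate value from 5 UMIs in 3 of 43. In its CD45+ nuclei, 11 UMIs came from 2 of 11 nuclei of cluster CD45+ 2. In HNKO mouse 3 the same cell types had 25.6, 7.38 and 30.6 CPM of Cib3. The part of free RNA in the Cib3 counts of these cell types was not tested. Pls1 likewise had at most 7 UMIs in any endothelial, stellate, Kupffer or CD45+ sum, and Gldn at most 1.

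Ntrk2 was higher in hepatocytes than in any other cell type with at least 10 nuclei in each of the 6 mice. In cholangiocytes of HNKO mice 1, 2 and 3 it was at 96.0, 49.3 and 53.5 CPM. In endothelial sums Ntrk2 was at 22.4, 23.8 and 36.9 CPM in WT and 125.9, 8.13 and 51.3 CPM in HNKO mice. The 40 UMIs behind the value of HNKO mouse 1 came from 7 of 71 nuclei.

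Rtn4, Cpne8, Atp11a, Alpk1 and Msrb3 were higher in cholangiocytes than in hepatocytes of the same mouse in each of the 3 HNKO mice. WT mice had 2 cholangiocyte nuclei in all, so no comparison of genotypes was possible there. Rtn4 was at 683.6, 320.3 and 1239 CPM in cholangiocytes of HNKO mice 1, 2 and 3 against 53.8, 35.7 and 276.1 CPM, unscaled, in their hepatocytes. Cpne8 was at 631.6, 556.8 and 440.8 CPM in cholangiocytes. Msrb3 was at 192.2, 172.5 and 155.0 CPM there, and Atp11a at 107.5, 147.8 and 87.3 CPM. Alpk1 was at 207.8, 53.4 and 249.9 CPM, with the value of HNKO mouse 2 resting on 2.17 UMIs.

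Markers of cholangiocytes were read in the hepatocyte sums beside these members. Of the 7 markers, 4 to 6 had a UMI in a mouse, and Krt19 was at 0 in all 6 mice. Together they reached 614.5, 295.5 and 496.5 CPM in the HNKO mice and 309.6 and 301.5 CPM in WT mice 1 and 3, with WT mouse 2 between WT mouse 1 and HNKO mouse 3, and Pkhd1 made up 285.5 to 587.9 CPM of it. The sum was 669 and 593 CPM in clusters HNKO 1 and HNKO 2 against 5797 in the cluster Cholangiocyte 1. The stellate list, also of interest since Cpne8 and Msrb3 are high in stellate cells, summed to 37.1 to 87.4 CPM in hepatocytes of WT and 192.8, 29.5 and 121.4 CPM of HNKO mice, almost all of it Reln. The other 4 stellate markers, Dcn, Lrat, Pdgfrb and Colec11, had 0 to 14 UMIs each. The B cell list, beside Blnk, summed to 9.03 to 11.1 CPM in hepatocytes of WT and 7.67 to 10.2 CPM in those of HNKO mice. The part of other cell types in the hepatocyte values was not tested.

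Msrb3 was highest in endothelial and stellate cells. It was at 798.6, 583.3 and 886.2 CPM in endothelial sums of WT and 677.0, 548.2 and 408.8 CPM of HNKO mice, and at 206.7 to 670.5 CPM in stellate sums. Cpne8 was at 222.9 to 373.1 CPM in endothelial and 212.3 to 567.2 CPM in stellate sums, ranges that overlapped. Blnk was highest in CD45+ cells, at 82.8 to 373.8 CPM over 5 mice. Within the CD45+ cells it was at 430.3 CPM in the cluster CD45+ 3 (25 nuclei), 188.8 in CD45+ 1 (105 nuclei) and 20.3 in CD45+ 2 (47 nuclei). Kupffer sums, available for the 3 HNKO mice, held Rtn4 at 242.6, 269.5 and 627.8 CPM and Alpk1 at 232.9, 431.1 and 196.9 CPM.

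**Figure D4:**
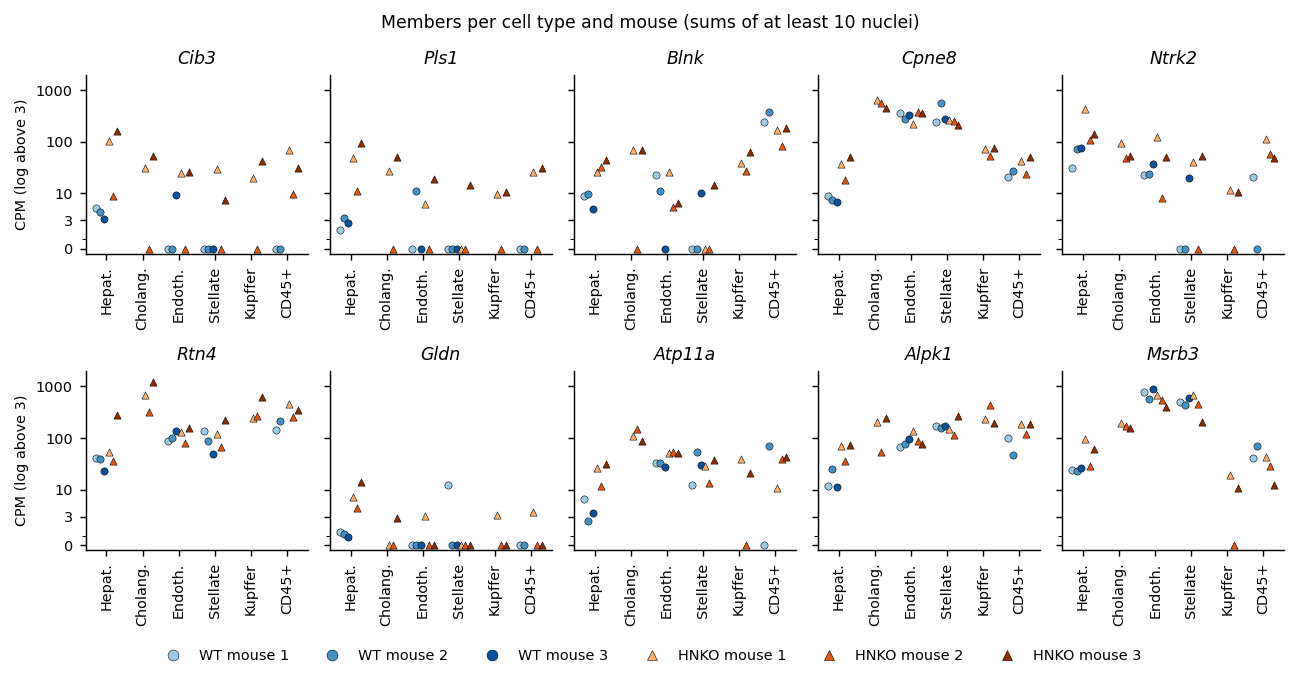
CPM of each member in each cell type and mouse, for sums of at least 10 nuclei; the axis is linear below 3 and logarithmic above, circles are WT mice and triangles HNKO mice. Cib3, Pls1, Gldn and Ntrk2 have their highest points in hepatocytes, Blnk in CD45+ cells, Rtn4, Cpne8 and Atp11a in cholangiocytes, Alpk1 in Kupffer cells, and Msrb3 in endothelial cells.

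The genotypes were compared for the members in the other cell types, which the choice of members did not use and where the albumin promoter is not active. None of the members that passed the count filter differed between HNKO and WT by the edgeR quasi-likelihood test at a false discovery rate (FDR) of 0.05, of 4 tested in endothelial, 4 in stellate and 3 in CD45+ cells, nor by DESeq2. Over all genes, 0.0% of 2743, 2266 and 2703 were called in the 3 cell types, and at an unadjusted p under 0.05 edgeR gave 104, 160 and 222 genes, of which 1 was a member, Blnk in CD45+ cells. DESeq2 called 1, 1 and 4 genes there, none of them a member.

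In endothelial cells Msrb3 had a log2 difference of -0.47 ± 0.25 (SE, edgeR FDR = 0.996), Cpne8 of -0.04 ± 0.28, Rtn4 of 0.16 ± 0.37 and Alpk1 of 0.36 ± 0.40, all with overlap between genotypes, where 10.2% of the genes tested had none. In stellate cells Cpne8 had -0.52 ± 0.37 (edgeR FDR = 0.813), Rtn4 0.57 ± 0.53, Msrb3 -0.23 ± 0.40 and Alpk1 0.07 ± 0.38, again with overlap, against 12.4% of genes without it.

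In CD45+ cells 2 WT and 3 HNKO mice had at least 10 nuclei. Rtn4 was at 145.4 and 218.0 CPM in WT and 478.9, 250.9 and 331.3 CPM in HNKO mice, a log2 difference of 1.02 ± 0.47 (SE, edgeR FDR = 0.611). Alpk1 was at 103.8 and 48.4 CPM in WT and 190.8, 115.8 and 174.3 CPM in HNKO mice, a difference of 1.09 ± 0.57 (FDR = 0.655). Blnk was lower, at 249.2 and 387.5 CPM in WT and 172.1, 77.2 and 174.3 CPM in HNKO mice, a difference of -1.08 ± 0.47 (FDR = 0.596). The 3 genes did not overlap between genotypes, which held for 26.6% of the 2703 genes tested in CD45+ cells. The makeup of the CD45+ nuclei differed between the mice compared: cluster CD45+ 3, where Blnk is highest, was 33.3% and 31.3% of the CD45+ nuclei of the 2 WT mice and 7.35%, 11.5% and 13.3% of those of the HNKO mice. WT mouse 3, which had too few CD45+ nuclei to enter the test, had 1 of 7 (14.3%) in that cluster, near the HNKO mice. The part of that cluster in the Blnk value was not tested. In WT mouse 1 the 12 UMIs of Blnk came from CD45+ 3. In WT mouse 2, 6 UMIs came from CD45+ 3 and 10 from 2 of 5 nuclei of CD45+ 1. Within CD45+ 3, over all 6 mice, Blnk was found in 8 of 11 WT and 10 of 14 HNKO nuclei.

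Relatives of the members in hepatocytes were taken from lists of paralogs, ligands, receptors and partners, which did not enter the choice of members. Of 85 such genes 45 passed the count filter. None was called by edgeR at an FDR of 0.05 or by DESeq2, as were 0.0% of the 11810 genes by edgeR, where 698 genes had an unadjusted p under 0.05, 3 of them relatives, Atp9a and Vav3 among them. DESeq2 called 21 of these genes. Their median log2 difference was 0.07 against 0.02 over all genes, and 4 of 45 (8.89%) did not overlap between genotypes against 11.6% of all genes. The relatives as a group were thus near the background.

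Of the neurotrophin family around Ntrk2, 7 of 11 genes passed the filter, with a median log2 difference of 0.46. Ntf3, the ligand of TrkC, was at 6.44, 12.3 and 15.5 CPM in WT and 16.6, 3.97 and 40.9 CPM in HNKO mice, a log2 difference of 0.84 ± 0.71 (SE, edgeR FDR = 0.848).

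Among the phospholipid flippases and their partners around Atp11a, 11 of 14 passed the filter, with a median log2 difference of 0.03. Atp9a was at 39.9, 56.5 and 38.0 CPM in WT and 71.2, 65.6 and 81.9 CPM in HNKO mice without overlap, a log2 difference of 0.71 ± 0.21 (SE, edgeR FDR = 0.820). Atp11b, the closest paralog listed, had -0.33 ± 0.23. Around Blnk, 3 of 11 genes passed, and Vav3, a guanine nucleotide exchange factor of B cell receptor signalling, was at 3.07, 4.18 and 3.82 CPM in WT and 1.32, 2.81 and 1.99 CPM in HNKO mice, a log2 difference of -0.86 ± 0.36 (FDR = 0.820). Lyn, a Src-family kinase, had 0.20 ± 0.19. Tifa, the partner of Alpk1, had 0.35 ± 0.23 and Alpk2 -0.45 ± 0.30, and 4 of 6 genes of that list passed the filter.

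The relatives named from the other lists had smaller log2 differences than their members. Of the copines 4 of 8 passed, with Cpne1 at 0.27 ± 0.16 (SE of the log2 difference) and Cpne4 at -0.30 ± 0.40. Of the actin-bundling genes around Pls1 4 of 8 passed, with Actn1 at 0.45 ± 0.29 and Lcp1 at -0.11 ± 0.21. Of the reticulons and Nogo receptors 4 of 10 passed, with Rtn4rl1 at 0.38 ± 0.24 and Rtn4ip1 at 0.13 ± 0.20. All 6 methionine sulfoxide reductase and thioredoxin genes passed, with Msrb2 at 0.28 ± 0.25 and Txn2 at -0.23 ± 0.21. Of the lists of Cib3 and Gldn 1 gene each passed, Cib1 at 0.04 ± 0.34 and Olfml1 at 0.78 ± 0.56. None of these was called by edgeR (FDR from 0.820 to 0.984).

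**Figure D5:**
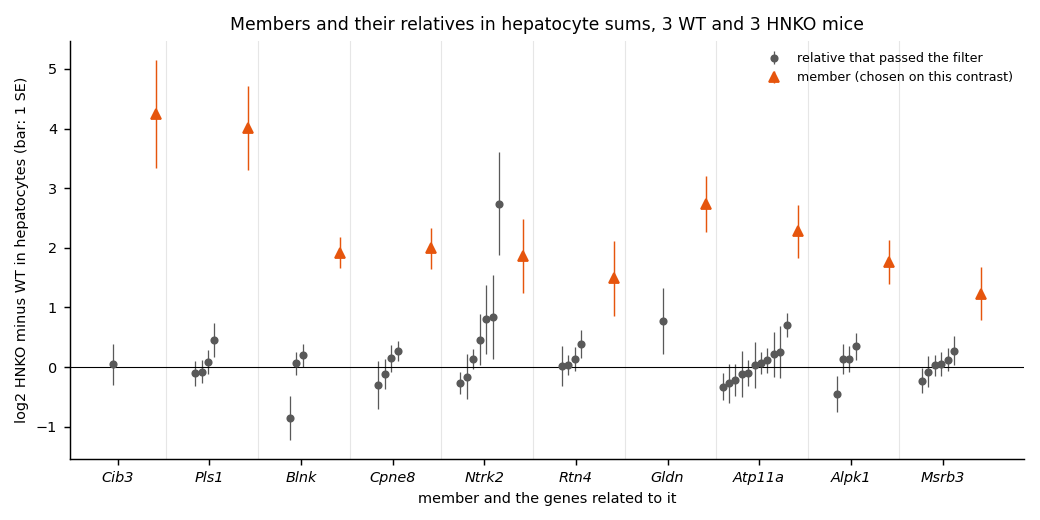
Log2 difference between HNKO and WT hepatocyte sums for each relative that passed the count filter (grey circles) and for the member it belongs to (orange triangle, chosen on this contrast), with bars of 1 SE from 3 WT and 3 HNKO mice. Vav3, at -0.86, is the lowest relative, and Atp9a lies at 0.71.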

How the data were processed

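The authors sequenced 10x Genomics 3′ libraries, used Cell Ranger 5.0.1 for the reads and Alevin to count UMIs, introns included, on GRCm38 with GENCODE, and deposited estimated counts (10.1% of the nonzero values are not whole), hashtag counts and cell annotations for singlets. The cell types and clusters are the authors' own, and mice were assigned by the deposited hashtag call. For each cell type the estimated counts of a mouse's nuclei (10 or more) were added up, rounded, and tested with edgeR 4.0.16 (filterByExpr, TMM, quasi-likelihood F test, two-sided, Benjamini-Hochberg FDR of 0.05 over all genes), with DESeq2 as an alternative. The edgeR step was tested on simulated counts. The authors also deposited SCTransform scores, counts corrected to a common depth, which served as an alternative only. Members, lists and tests were chosen with earlier results of these data known. Named relatives are up to 2 per list with the largest absolute log2 difference among those past the filter, and alike genes are the 3 with the highest r; 1 gene of each kind is not reported here. Promoters are from RefSeq (GRCm38.p6), and all 10 members matched. Pools could not be told apart by barcode, so pool was not a term. Nuclei of a mouse come from 1 liver each, and p-values measure the spread between mice.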

Additional observations from a re-analysis of the deposited data

Results flagged for a closer look

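Blnk is listed because its mice moved in opposite directions by genotype in 2 cell types. All 3 HNKO mice lay above all WT mice in hepatocytes, where the gene was chosen for that difference, and all 3 lay below both WT mice in CD45+ cells, with a log2 difference of -1.08 there. The share of cluster CD45+ 3, where Blnk is highest, was lower in the HNKO mice than in the 2 WT mice compared, and its part was not tested. The WT values rest on few UMIs: 12 from CD45+ 3 in WT mouse 1, and 10 from CD45+ 1 and 6 from CD45+ 3 in WT mouse 2. The difference between the cell types was not tested, since the hepatocyte contrast chose the gene. Groups of 3 mice were not searched for outlying samples.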

How the results depend on the processing

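No paired analysis was possible because the replicate numbers in the labels number pools that each hold all 6 mice, and mice of the 2 genotypes share no number that pairs them. Counts of called genes, 0 in each of the 4 cell types by edgeR, were 21, 1, 1 and 4 by DESeq2 and 35, 16, 29 and 23 without a filter on low counts in hepatocytes, endothelial, stellate and CD45+ cells. Scaling to UMI totals alone, chosen after the data were seen, gave 1 in CD45+ cells and 0 in the others. Leaving out 1 mouse at a time gave 0 to 32 calls in hepatocytes, 0 to 47 in stellate cells and 0 to 10 in CD45+ cells, with the highest count each time without HNKO mouse 2, and 0 to 1 among the relatives. The cause was not tested. Where a WT mouse was left out in CD45+ cells, the lone WT sample was assumed to vary like the HNKO mice. Nuclei with at least 50% own hashtag left too few mice for a fit in stellate and CD45+ cells. Cpne8 in endothelial cells turned to 0.10 without the filter and ran from -0.17 to 0.18 with single mice left out, Alpk1 and Msrb3 in stellate cells from -0.35 to 0.27 and from -0.66 to 0.10. Among relatives, Lcp1 turned to 0.075 by UMI totals, and with single mice left out it ran from -0.22 to 0.11, Cib1 from -0.17 to 0.21, Ntf3 from -0.16 to 1.32 and Olfml1 from -0.089 to 1.14. In hepatocytes all 10 members kept HNKO above WT in the mean under every alternative run. They were picked for that direction in these same mice, so nothing is read from it. For levels, 107 of 110 alternative values differed from the reported ratio by less than the spread between mice. The exceptions were Ntrk2 without HNKO mouse 1, Rtn4 without HNKO mouse 3 and Gldn as the mean of CPM per nucleus (log2 ratio 1.95 against 2.73). That spread is wide where HNKO mouse 2 lay far below HNKO mice 1 and 3, so it is a loose measure. Shares of hepatocyte nuclei with a UMI were less stable when nuclei were thinned or at least 2 UMIs were required. Of their alternative ratios, 10 moved by at least the spread of the shares between mice and 9 did not. Limits are the 3 mice per genotype, clusters that follow single mice, free RNA and the few nuclei outside hepatocytes.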
